A study of Mus musculus with 2 samples.

Results

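The genes described here write, maintain and remove 5-methylcytosine in DNA. They are the methyltransferases Dnmt1, Dnmt3a and Dnmt3b, the methylation reader Uhrf1, the dioxygenases Tet1, Tet2 and Tet3, and the DNA glycosylases Tdg and Mbd4. The 9 genes were taken by name from 20659 genes that the array's probes could be matched to, and their 18 non-control probes from 39429. All 9 had a probe measured on both arrays, which means a signal that the scanner flagged as well above background and not as saturated. Of the 18 probes, 15 were measured on both arrays, 1 was well above background in SoNar-high cells only, and 2 on neither array.

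SoNar is a genetically encoded fluorescent sensor that reports the cytosolic balance of NADH and NAD+. E13.5 fetal livers of C57BL/6 mice gave blood cells that were sorted into a SoNar-high population by the ratio of the sensor's fluorescence at 2 wavelengths (F405/F488), and the SoNar-low population came from fetal liver of the same stage, with the strain given as C57BL. No further allele, treatment or surface marker gate is named for either population, and the sources used here give no number of embryos. Total RNA of each population was labelled with Cy3 and hybridised to 1 Agilent mouse array, so each group has 1 array and no difference below carries a replicate error or a p-value.

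Cytosine methylation at CpG sites is copied to the new strand after replication by Dnmt1, which Uhrf1 brings to hemimethylated sites. Dnmt3a and Dnmt3b set methylation at sites that lack it. The Tet enzymes oxidise 5-methylcytosine with 2-oxoglutarate and iron, Tdg excises the later oxidation products and mismatched thymine, and Mbd4 removes thymine that arises when 5-methylcytosine is deaminated. In blood, Dnmt3a and Tet2 are known for their roles in stem cell self-renewal and differentiation, Dnmt1 is needed to maintain stem and progenitor cells, and erythroid differentiation in mouse fetal liver is accompanied by a broad loss of DNA methylation.

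The promoter stretches of Dnmt1 and Dnmt3b are shown because these methyltransferases lay farthest apart in the comparison below and because CpG sites, set in capitals, are the substrate of the enzymes. Sequences are from RefSeq, build GRCm38.p6, and read 5′ to 3′ on the gene's strand. The Dnmt1 stretches are the bases before the outermost annotated start (chr9:20959889-20960138, minus strand) and before a start further inside the gene (chr9:20952980-20953229, minus strand). The Dnmt3b stretch is the part of its window that lies before the gene (chr2:153649199-153649410, plus strand).
Dnmt1, outermost start: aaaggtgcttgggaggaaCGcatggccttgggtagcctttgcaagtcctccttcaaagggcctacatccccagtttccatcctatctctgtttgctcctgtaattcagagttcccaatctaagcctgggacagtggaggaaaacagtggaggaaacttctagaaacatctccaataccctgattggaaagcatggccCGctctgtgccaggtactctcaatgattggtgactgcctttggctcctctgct
Dnmt1, inner start: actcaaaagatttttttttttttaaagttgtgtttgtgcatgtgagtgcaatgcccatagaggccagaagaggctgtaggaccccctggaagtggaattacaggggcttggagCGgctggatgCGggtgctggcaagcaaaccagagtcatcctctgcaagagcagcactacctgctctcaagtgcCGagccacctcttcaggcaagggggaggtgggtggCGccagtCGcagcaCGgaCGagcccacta
Dnmt3b: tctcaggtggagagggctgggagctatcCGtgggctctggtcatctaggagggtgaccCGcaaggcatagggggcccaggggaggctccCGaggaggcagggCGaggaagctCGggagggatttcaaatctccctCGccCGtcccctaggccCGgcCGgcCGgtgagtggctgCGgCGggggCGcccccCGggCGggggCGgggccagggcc
The 250 bases before the outermost Dnmt1 start held 2 CpG sites, and the 250 bases before the inner start 7. The 212 bases of Dnmt3b held 16. Dnmt1 has a further, innermost start whose bases are not printed. Its window, which also takes in bases after the start, held 33 CpG sites, against 30 in the Dnmt3b window of the same length. The printed stretches therefore do not show fewer CpG sites at every Dnmt1 start. Which start is used in these cells was not tested.

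All 9 members matched at least 1 promoter window, which runs from 250 bases before to 50 after a start, and 14 windows were found in all. Over the outermost window of each gene the CpG count ran between 2 in Dnmt1 and 57 in Tet2, with 46 in Dnmt3a, 30 in Dnmt3b, 26 in Tdg, 25 in Mbd4, 22 in Tet3, 17 in Tet1 and 12 in Uhrf1. The median of all 32841 RefSeq windows of that length was 7, and 8 of the 9 members lay above it. Other starts of a gene gave other counts. The further Dnmt1 windows held 12 and 33 CpG sites, the second Uhrf1 window 33, and the further Dnmt3a windows 47 and 18, so Dnmt1 was under the median at its outermost start only. The E2F-type motifs TTTCCCGC and TTTGGCGC, searched on both strands, occurred in 1.07% and 0.515% of all windows. Of the 14 member windows, 1 held TTTGGCGC (the innermost of Dnmt1) and none held TTTCCCGC. A match or its absence describes these letters only.

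On the arrays, values are the scanner's processed signal, and a difference is the log2 value in SoNar-high cells minus that in SoNar-low cells, each taken relative to its array's 75th percentile. That percentile was 186.5 units in SoNar-high and 222.2 units in SoNar-low cells, so a probe with equal signal on both arrays has a positive difference. The ± beside a difference is the error that the scanner software estimates for the 2 spots. It covers the spot and its background, and not animals, sorts or labelling. For bright probes it was nearly the same whatever the probe, with 0.204 for the brightest Dnmt3b probe and for the brightest Uhrf1 probe. There it is close to a fixed share of the signal, and not a spread measured on each probe. Spots of 213 probes printed 10 times gave a median SD of 0.15 for a difference, which was 0.20 for the 36 with signals under 100 units and 0.13 for the 60 at 1000 units or more. Of all non-control spots, 49.4% in SoNar-high and 42.4% in SoNar-low cells were well above background. With the percentile taken only over spots detected on both arrays, the median of all genes moved by 0.15.

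None of the 9 members differed by 2-fold or more in either direction. The same size was passed by 540 (5.28%) of 10223 measured genes that were higher in SoNar-high cells and by 454 (4.44%) that were lower, so a count of 0 among 9 genes is near that background. With the percentile over detected spots the split of all genes was 782 higher and 247 lower, with a median taken over detected spots 639 and 354, with dim probes kept 2476 and 659, and after a loess fit 651 and 347. Of the members, 5 lay below 0 and 4 above, with a median of -0.11 against -0.08 for all measured genes, of which 55.8% were below 0. The 9 differences spanned -0.76 for Dnmt3b to 0.62 for Tet3, on the log2 scale.

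**Figure D1:**
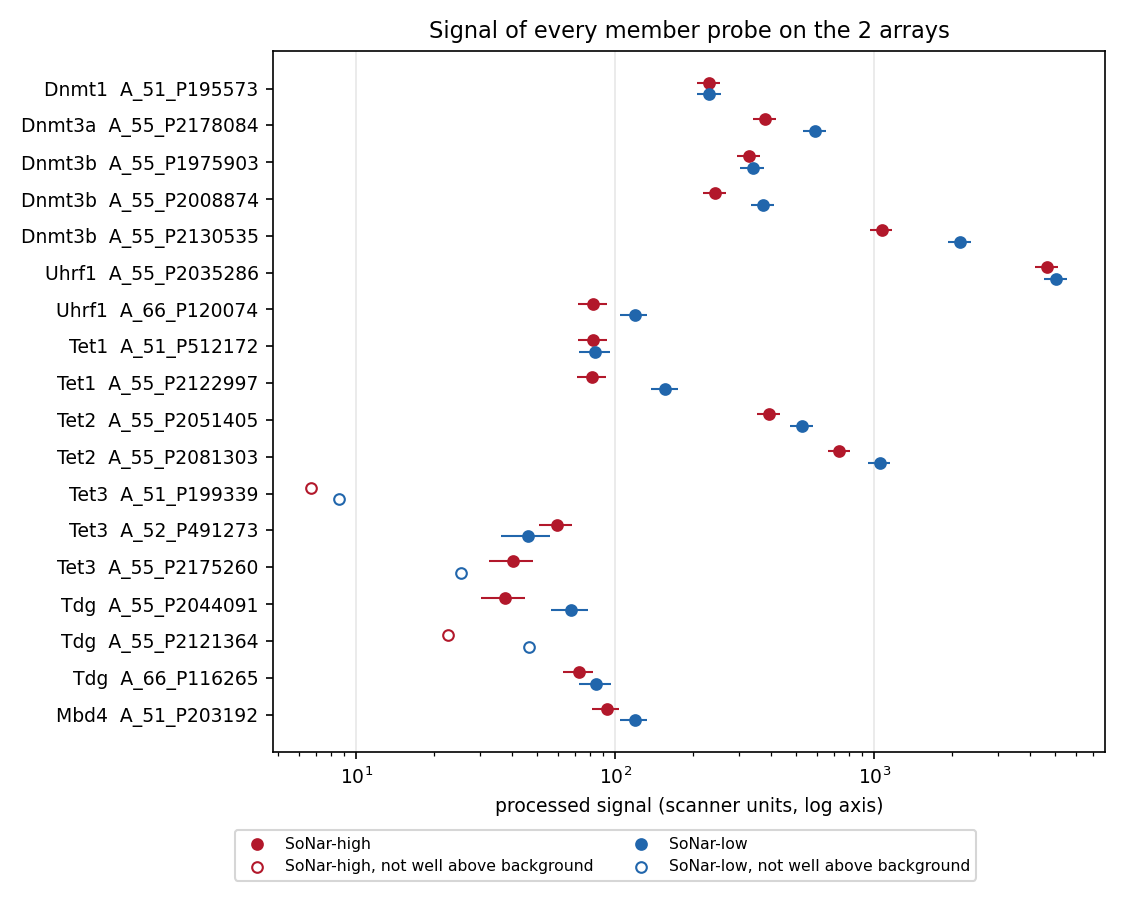
Processed signal (scanner units, log axis) of all 18 probes of the 9 genes on the SoNar-high array (red) and the SoNar-low array (blue). Bars are the scanner's error of a spot, drawn only for spots well above background, and open points were not well above background. The pair of Dnmt3b probe A_55_P2130535 (1067 and 2147 units) stands farther apart than those of the other Dnmt3b probes.

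Among the de novo methyltransferases, Dnmt3b had the lowest reported difference of the 9 genes, a rank that depended on the setting. Tet1 lay lower after quantile normalization (Tet1 -0.80, Dnmt3b -0.60) and after loess (Tet1 -0.75, Dnmt3b -0.54). It also did so in the deposited value table (Tet1 -0.80, Dnmt3b -0.57). The columns of that table share a distribution, as after quantile normalization, so it is no separate check. The brightest Dnmt3b probe, A_55_P2130535, read 1067 ± 107 units in SoNar-high cells and 2147 ± 215 units in SoNar-low cells. The scaled difference of -0.76 ± 0.20 is 1.69-fold lower in SoNar-high cells, and 10.3% of measured genes lay lower still. The other probes of the gene did not repeat this size. Probe A_55_P2008874 read 243 units in SoNar-high and 372 units in SoNar-low cells, a difference of -0.36 ± 0.21. Probe A_55_P1975903 read 328 units in SoNar-high and 340 units in SoNar-low cells, which is 0.20 ± 0.21 after scaling and within its error. All these Dnmt3b probes carry the same transcript in the array's design, and the sources used here do not say where on the transcript each lies. Their range of 0.96 was wider than in 86.9% of the 2021 genes with more than 1 measured probe, for which the median range was 0.41.

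Dnmt3a, the other de novo enzyme, has 1 probe, which read 378 ± 38.3 units in SoNar-high cells and 592 ± 59.8 units in SoNar-low cells. Its difference was -0.39 ± 0.21, or 1.31-fold lower in SoNar-high cells. It was negative under the reported and all 10 other ways of scaling, filtering or choosing probes, between -0.39 and -0.22. Filtering, the choice of probes and keeping outlier spots left the Dnmt3a value unchanged, so they add nothing to its sign. The Dnmt3b difference lay 0.36 ± 0.29 under that of Dnmt3a by the brightest Dnmt3b probe. With the median over probes that order reversed, with Dnmt3b at -0.36 and Dnmt3a at -0.39.

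Dnmt1, the maintenance enzyme, read 230 ± 23.8 units in SoNar-high cells and 231 ± 24.5 units in SoNar-low cells on its single probe. The raw signals were nearly equal, and the difference of 0.24 ± 0.21 came from the scaling of the dimmer SoNar-high array. It stayed positive under the other 10 settings, between 0.14 and 0.40. Those that filter or choose probes or keep outlier spots left the Dnmt1 value unchanged. Only other background correction, other scaling and the deposited value table moved it. Dnmt3b lay 1.00 ± 0.30 and Dnmt3a 0.64 ± 0.30 under Dnmt1 on the log2 scale. These gaps between genes of 1 array pair do not depend on the percentile that is subtracted. They were not tested, and for Dnmt3b the gap holds for the brightest probe, whereas the probe at 0.20 lay close to Dnmt1.

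Uhrf1, which recruits Dnmt1, had probes that differed in sign. The bright probe A_55_P2035286 read 4651 ± 465 units in SoNar-high cells and 5043 ± 504 units in SoNar-low cells, a scaled difference of 0.14 ± 0.20 that is within its error. The dim probe A_66_P120074, designed on another transcript of the gene, read 82.4 ± 10.3 units in SoNar-high and 118.8 ± 14.2 units in SoNar-low cells, a difference of -0.28 ± 0.25. With the median over both probes the Uhrf1 value was -0.070. The Uhrf1 and Dnmt1 differences were 0.11 ± 0.30 apart.

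**Figure D2:**
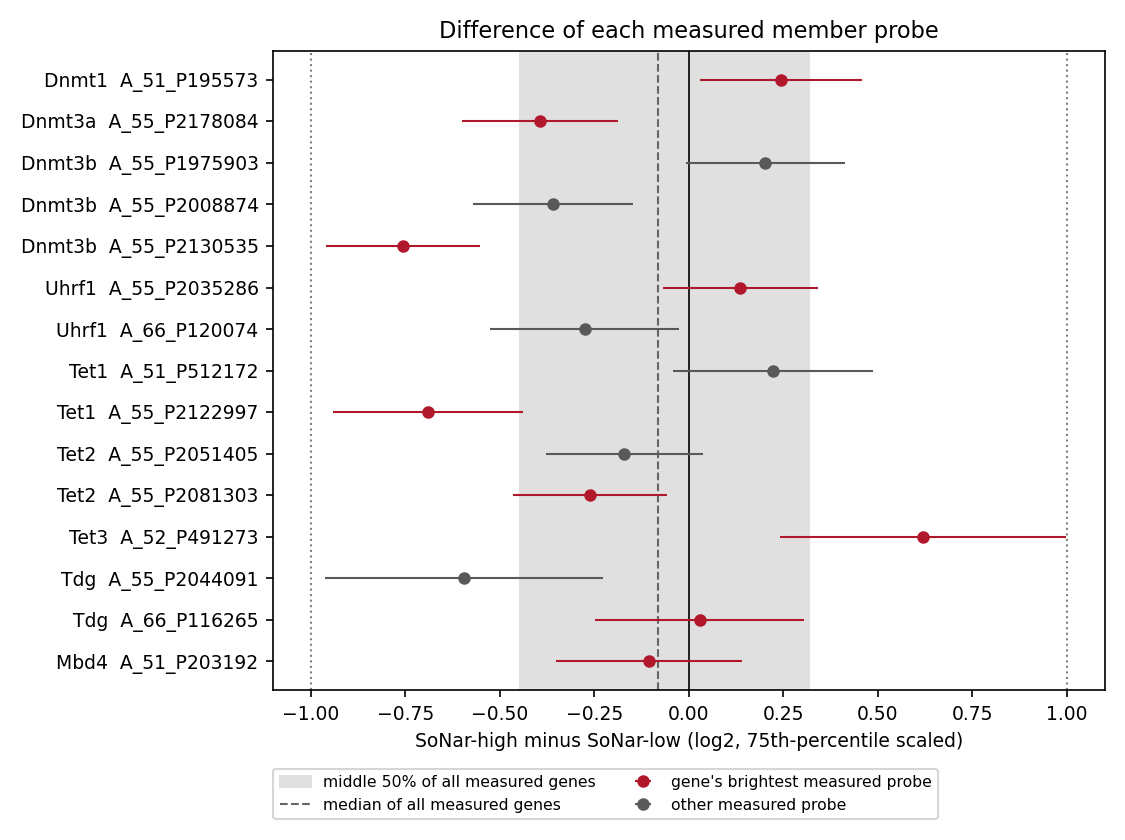
SoNar-high minus SoNar-low difference (log2) of the 15 probes measured on both arrays, with the scanner's error of the difference as bars. Red marks the brightest measured probe of each gene, dotted lines mark 2-fold, the grey band holds the middle 50% of all measured genes (-0.45 to 0.32) and the dashed line their median (-0.08). Probes lie between -0.76 and 0.62, inside the 2-fold lines.

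The Tet genes spread to both sides of 0. Tet1 has 2 probes that read nearly the same in SoNar-high cells, 81.3 and 82.1 units, and differed in SoNar-low cells, with 156.3 ± 18.5 units for A_55_P2122997 and 83.8 ± 11.2 units for A_51_P512172. The first of these gave -0.69 ± 0.25, or 1.61-fold lower in SoNar-high cells, and the second 0.22 ± 0.26. Tet1 was negative as a gene under all 10 settings that measured it, and its difference was smaller with the median of its probes (-0.23) and after normexp background correction (-0.23).

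Tet2 was measured by 2 probes with close values. Probe A_55_P2081303 read 733 ± 73.6 units in SoNar-high and 1048 ± 105 units in SoNar-low cells, and probe A_55_P2051405 read 392 ± 39.9 units in SoNar-high and 526 ± 53.5 units in SoNar-low cells. Their differences of -0.26 ± 0.20 and -0.17 ± 0.21 lay 0.09 apart, a range narrower than in all but 9.55% of the genes with several measured probes. Tet2 was 1.20-fold lower in SoNar-high cells by the brighter probe, and after the loess fit its difference was -0.051.

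Tet3 had the highest difference of the members and dim probes. Probe A_52_P491273 read 59.5 units in SoNar-high cells and 46.1 units in SoNar-low cells, a difference of 0.62 ± 0.38, or 1.54-fold higher. The Tet3 difference was smaller after normexp (0.36) and quantile normalization (0.35) and in the authors' deposited value table (0.35). That table is no check separate from quantile normalization. Probe A_55_P2175260 was well above background in SoNar-high cells only (40.4 units, against 25.3 units in SoNar-low cells). Its signal in SoNar-high cells (with an error of 7.85 units) was, after scaling, 1.30-fold the lowest signal well above background on the SoNar-low array, 37.1 units. This is no lower limit of the difference, because a Tdg probe read 46.5 units in SoNar-low cells and was not well above background. After quantile normalization the 1.30-fold gap was gone. Probe A_51_P199339 was not well above background on either array. Tet1 lay 1.31 ± 0.45 and Tet2 0.88 ± 0.43 under Tet3 on the log2 scale. For Tet1 the gap holds for probe A_55_P2122997, whereas its other probe, at 0.22, lay closer to Tet3. The gap was narrower after normexp, with Tet1 at -0.23 and Tet3 at 0.36. Signals of both Tet1 and Tet3 were dim, and these gaps were not tested.

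Of the glycosylases, Tdg was measured by 2 dim probes. Probe A_66_P116265 read 72.2 ± 9.47 units in SoNar-high and 84.4 ± 11.8 units in SoNar-low cells, a difference of 0.03 ± 0.28. Probe A_55_P2044091 read 37.5 ± 7.27 units in SoNar-high and 67.4 ± 11.1 units in SoNar-low cells, a difference of -0.60 ± 0.37. The third Tdg probe was not well above background on either array. The sign of Tdg as a gene was negative under 5 of 10 settings, between -0.28 and 0.18. Mbd4 read 92.6 ± 11.1 units in SoNar-high and 118.6 ± 14.3 units in SoNar-low cells, and its difference of -0.11 ± 0.25 was within its error and turned to 0.05 with the percentile over detected spots.

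Ordered by reported difference, the members ran Dnmt3b, Tet1, Dnmt3a, Tet2, Mbd4, Tdg, Uhrf1, Dnmt1 and Tet3. No neighbours in that order were farther apart than their combined scanner error, and the widest gap between neighbours, from Dnmt1 to Tet3, was 0.38 ± 0.43. Of the 15 measured probes, 7 were below 0 and 2 above 0 by more than 1 scanner error, and 6 were within it. Only the brightest Dnmt3b probe and A_55_P2122997 of Tet1 were farther from 0 than 2 scanner errors. Of 5 members with more than 1 measured probe, 4 (Dnmt3b, Uhrf1, Tet1 and Tdg) had probes of both signs, which was the case in 37.9% of the 2021 genes with several measured probes.

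**Figure D3:**
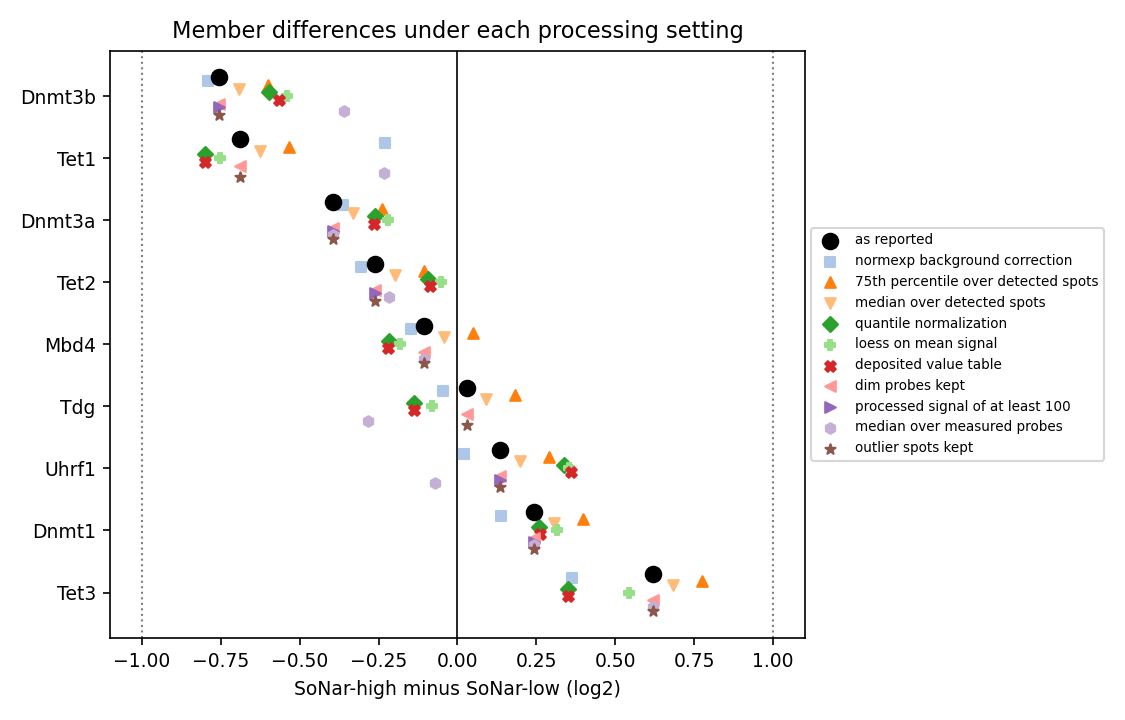
SoNar-high minus SoNar-low difference (log2) of each member, in order from Dnmt3b to Tet3, as reported (black) and under 10 other settings, with dotted lines at 2-fold. Dnmt3b, Tet1, Dnmt3a and Tet2 stay below 0 and Dnmt1 and Tet3 above 0 wherever they were measured, while Mbd4, Tdg and Uhrf1 take both signs. Keeping dim probes or outlier spots, or asking for signals of at least 100 units, left every measured value as reported.

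The partners and relatives of the methyltransferases had a median below that of all genes. Of 16 listed genes, 14 were measured. Of these 11 lay below 0, beside 55.8% of all measured genes, the median was -0.49, and it was between -0.49 and -0.27 over all settings. At the 2-fold size 1 was lower and none higher, against 4.44% and 5.28% of all genes. Hells, a chromatin remodeller needed for methylation of repeats, read 228 units in SoNar-high and 644 units in SoNar-low cells, a difference of -1.25 ± 0.21. Cdca7l, a relative of the Hells partner Cdca7, had -0.89 ± 0.22, and Setdb1, a histone H3 lysine methyltransferase of silent chromatin, had -0.82 ± 0.25. Pcna, the replication clamp that binds Dnmt1, read 5769 units in SoNar-high and 11000.2 units in SoNar-low cells (-0.68 ± 0.20). Dnmt3l, the cofactor of de novo methylation in germ cells, and Dppa3, a Uhrf1 inhibitor of the oocyte, were not well above background on either array.

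In humans, mutations of DNMT3B, ZBTB24, CDCA7 and HELLS each cause the same disorder of DNA methylation, the ICF syndrome. These 4 genes were set side by side after the values of Hells, Cdca7 and Dnmt3b were seen, and Zbtb24 was named after its value was seen too. The mouse genes had differences of -0.76 ± 0.20 for Dnmt3b, -0.63 ± 0.33 for Zbtb24, -0.59 ± 0.20 for Cdca7 and -1.25 ± 0.21 for Hells. By each gene's brightest probe, Cdca7 was the highest of the 4, and 17.6% of measured genes lay at or below it. That share was set by the 4 values themselves, and the grouping was not tested. With the median over its probes Dnmt3b was at -0.36, with 29.2% of genes lower, and then lay above Cdca7. Zbtb24 was dim, with 47.8 units in SoNar-high and 87.9 units in SoNar-low cells.

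Replication genes give the setting in which Dnmt1 and Uhrf1 act. All 27 listed genes were measured, 20 lay below 0, beside 55.8% of all genes, and the median was -0.28 (between -0.28 and -0.07 over all settings). At the 2-fold size 1 was lower and none higher, against 4.44% and 5.28% of all genes, which is near that background. Rfc1, the large subunit of the clamp loader, had -1.04 ± 0.20, Cdc6, an origin licensing factor, had -0.91 ± 0.30 with its other probe at 0.14, and the helicase subunits Mcm3 and Mcm6 had -0.86 ± 0.20 and -0.11 ± 0.20. The values of Dnmt1 (0.24) and Uhrf1 (0.14) stood above the list's median, inside its range of -1.04 to 0.57.

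Of the methyl-CpG readers, 9 of 10 were measured, 5 above and 4 below 0, with a median of 0.23 that was -0.03 after normexp. At the 2-fold size 1 was higher and none lower, against 5.28% and 4.44% of all genes. Mbd2, a repressor that binds methylated CpG, read 3097 units in SoNar-high and 1814 units in SoNar-low cells, a difference of 1.02 ± 0.20 with its other probe at 0.60. Zbtb4 had 0.77 ± 0.38 and Mbd6 0.72 ± 0.21. Mbd3, a subunit of the NuRD complex, had 0.23 ± 0.20.

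Downstream of Tdg and Mbd4, 14 of 16 base excision repair genes were measured, with 6 above and 8 below 0 and a median of -0.06, which took both signs over the settings (-0.17 to 0.09). Lig3, a DNA ligase, had -1.01 ± 0.27 with its other probe at 0.10, the flap endonuclease Fen1 had -0.76 ± 0.20 and the uracil glycosylase Ung had -0.28 ± 0.20. Of the cytidine deaminases, Apobec1 and Apobec3 had -0.05 ± 0.20 and -0.02 ± 0.20 (the other Apobec3 probe 0.68), and Apobec2 was not well above background on either array.

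The methyltransferases use S-adenosylmethionine, and of 12 genes of its cycle 10 were measured, 7 of them below 0 (55.8% of all genes), with a median of -0.20. Mat2a, the synthetase subunit of most tissues, had -0.37 ± 0.20 with its other probe at -1.02. Ahcy, which clears the inhibitory product S-adenosylhomocysteine, had -0.81 ± 0.25 with its other probe at 0.32. The liver enzymes Bhmt and Gnmt had 1.74 ± 0.29 and 0.67 ± 0.29. The 8 measured hepatoblast markers were all above 0 as well (median 1.64, 5 at least 2-fold higher, against 5.28% of all genes), and their part in these values was not tested.

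Of 17 genes that supply the Tet cofactor 2-oxoglutarate, use it or work with the Tet enzymes, 14 were measured, 9 of them below 0 (55.8% of all genes), with a median of -0.19, which was 0.03 after the loess fit. Ogdh, which consumes 2-oxoglutarate, had 1.03 ± 0.20 with probes between 0.16 and 1.03. Cxxc5, a CXXC protein known as a Tet2 partner, had -0.97 ± 0.23. Fh1, whose substrate fumarate inhibits Tet enzymes, had -0.92 ± 0.21, and the mitochondrial isocitrate dehydrogenase Idh2 had -0.47 ± 0.20.

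**Figure D4:**
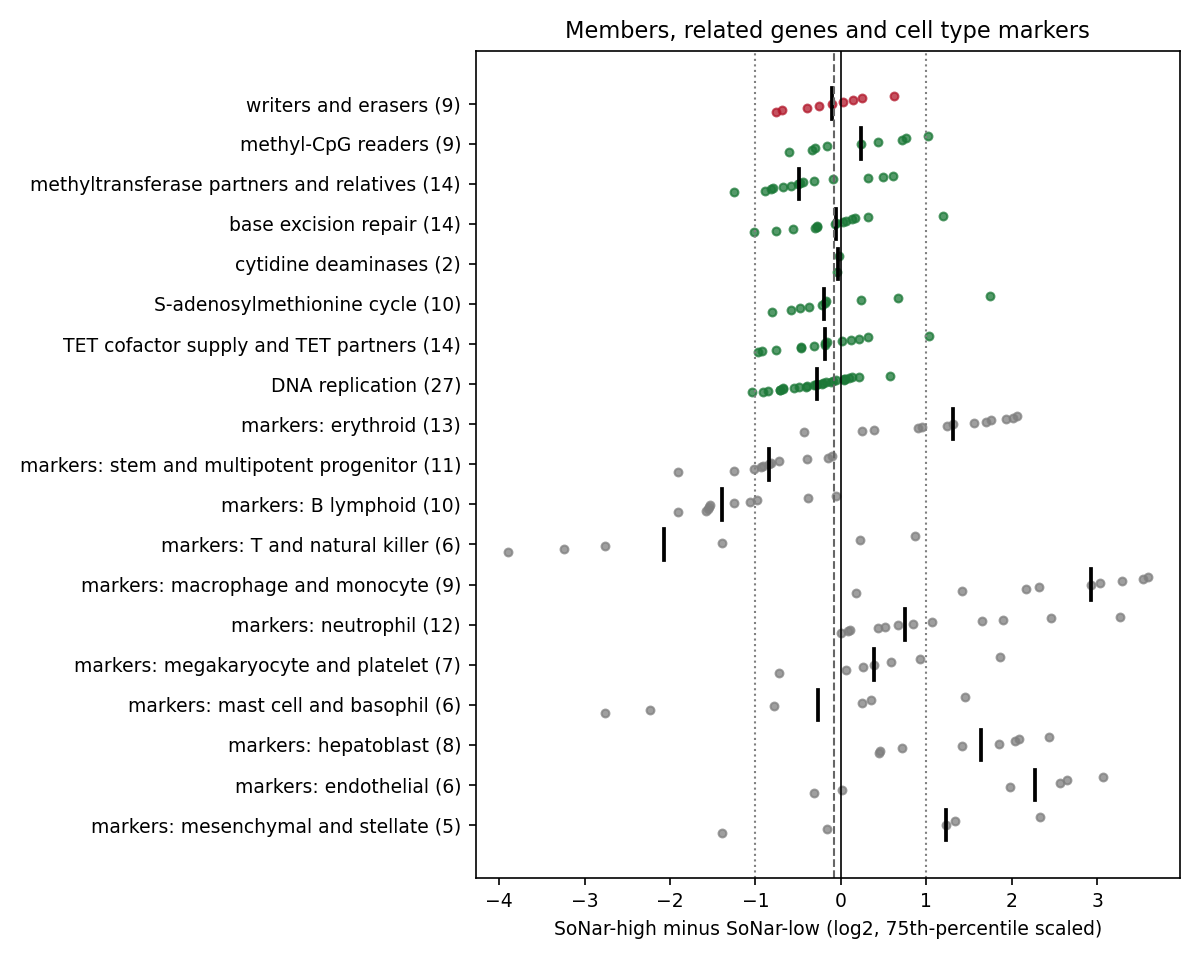
SoNar-high minus SoNar-low difference (log2) of each measured gene among the 9 members (red), related genes (green) and cell type markers (grey), with the number of measured genes in brackets. Black bars are medians, dotted lines mark 2-fold and the dashed line is the median of all measured genes. The members lie between -0.76 and 0.62, while marker medians run from -2.07 for T and natural killer cells to 2.93 for macrophages and monocytes.

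The populations are mixtures, and in bulk RNA fewer cells of a type cannot be told apart from less RNA per cell. Of the 14 listed erythroid markers, 13 were measured on both arrays. Of these, 12 were above 0 (median 1.31), whereas 55.8% of all measured genes were below 0. At the 2-fold size 8 were higher, against 5.28% of all genes. The summed signal of the erythroid markers, in units of each array's 75th percentile, was 348 in SoNar-high and 220.1 in SoNar-low cells. All 9 measured markers of macrophages and monocytes were above 0, with a summed signal of 101.9 in SoNar-high and 38.7 in SoNar-low cells. All 12 neutrophil markers were above 0 as well, with sums of 1176 in SoNar-high and 776 in SoNar-low cells. Some of these were within their scanner error, and the lowest was at 0.0009. Above 0 too were 5 of 6 endothelial markers, with sums of 34.1 in SoNar-high and 21.8 in SoNar-low cells. The medians of the megakaryocyte and mast cell lists were 0.39 (0.11 to 0.54 over all settings) and -0.26 (-0.46 to -0.05). That of the mesenchymal list was 1.23, and -0.17 with signals of at least 100 units. All 11 measured stem and multipotent progenitor markers lay below 0 (median -0.84), with sums of 76.7 in SoNar-high and 121.4 in SoNar-low cells. All 10 B lymphoid markers did so too (median -1.39), with sums of 27.8 in SoNar-high and 79.1 in SoNar-low cells. Of 6 measured T and natural killer markers 4 lay below 0 (median -2.07), with sums of 10.7 in SoNar-high and 34.0 in SoNar-low cells. The stem cell marker Mecom was not well above background on either array. The lower values of Dnmt3b, Dnmt3a, Tet1 and Hells stood beside lower progenitor and lymphoid markers, and the part of those cells in them was not tested.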

How the data were processed

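Total RNA of SoNar-high and SoNar-low blood cells of mouse fetal liver was hybridised in 1 colour, 1 array per group, grouped by the samples' source labels. Spot intensities were deposited by the authors as output of Agilent Feature Extraction (11.0.1.1 per the file headers, 9.1 per the submitters' processing notes, a disagreement left unresolved), which subtracted background, per the file headers. The log2 value table deposited by the authors has an unstated normalization. Its columns share a median (4.80) and, once sorted, differ by at most 0.0005, so they hold the same distribution, as columns do after quantile normalization. Across probes its differences and those of the scanner intensities had a correlation of 0.917, which set its direction.

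Outlier spots (225 in SoNar-high, 135 in SoNar-low) were left out, log2 processed intensity was scaled on the 75th percentile of 43020 non-control spots, and spots of a probe were averaged. Probes were named by transcript accession in a RefSeq table of GRCm38.p6 (27234 of 39429 matched), which served for names alone, since the array is annotated on mm9. Each gene is given by the brightest of its measured probes. The scanner's spot errors were divided by signal and combined in quadrature. Genes were called at 2-fold, without a test. The members are given with every probe, and in each list the 3 genes farthest from 0 and the brightest one could be named. Mbd3, Pcna, Mcm6, Ung, Mat2a and Idh2 were named as brightest. Cdca7 and Zbtb24, and genes not above background, were named after their values were seen. The members and lists were chosen with earlier results of these data known. Some listed genes are not reported here by name. The counting rule was tested on simulated data. Tools were Python 3.11.15, limma 3.58.1 (normexp, offset 50, on median spot and local background signals) and statsmodels 0.14.6 (loess, span 0.3).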

Additional observations from a re-analysis of the deposited data

How the results depend on the processing

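The limits of the comparison are 1 array per group, probes of 1 gene that disagree, and signals of Tet1, Tet3, Tdg and Mbd4 close to background. No paired analysis was possible because each group has 1 array. Alternatives were normexp, scaling on detected spots (75th percentile or median), quantile normalization, loess, the deposited value table, dim probes kept, a processed signal of at least 100 units, the median over probes, outlier spots kept and a 3-fold size. No member reached 2-fold under any of them. Of 86 recomputed member differences, 77 moved by no more than the gene's scanner error. The 77 include values that did not move at all, so their share overstates the agreement. Such were all member values with dim probes kept, outlier spots kept or signals of at least 100 units. Members with 1 measured probe also kept their value under the median over probes. The value table and quantile normalization are alike in distribution and are not separate checks. For dim genes the error is wide, and Tet3 at 0.35 after quantile normalization, against 0.62, was within it. The differences that moved further were those with the median over probes (Dnmt3b -0.36, Uhrf1 -0.070, Tet1 -0.23 and Tdg -0.28), after loess (Dnmt3b -0.54, Uhrf1 0.35 and Tet2 -0.051), after normexp (Tet1 -0.23) and in the value table (Uhrf1 0.36). With a signal of at least 100 units Tet1, Tet3, Tdg and Mbd4 had no value. The 540 genes at least 2-fold higher became 251 after normexp, 2476 with dim probes kept, 329 with signals of at least 100 units and 146 at 3-fold. The 454 lower genes became 257 after normexp, 247 with the percentile over detected spots and 48 at 3-fold. Why the values moved was not tested.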
